A study of Mus musculus with 12 samples.

Results

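The plasminogen activators, their receptor and the serpins that act around them were followed in mouse mesangial cells (MMC), the contractile cells that hold the capillary loops of the kidney glomerulus together. The 6 genes were taken by symbol from the 25230 genes counted in each library: Plau (urokinase), Plat (tissue plasminogen activator), Plaur (the urokinase receptor), Serpine2 (protease nexin-1), Serpinb2 (plasminogen activator inhibitor-2) and Serpinf1 (pigment epithelium-derived factor). The 12 RNA-seq libraries formed 4 groups of 3, made up of wild-type cells (WT-SD and WT-TGF) and knockout cells (KO-SD and KO-TGF). WT is wild type and KO is the lncMGC knockout, both grown as primary cultures from glomeruli. SD denotes serum-depleted control cells and TGF denotes cells given 10 ng/ml TGF-β, with 24 h stated as the time for all 4 groups. lncMGC is the long non-coding host transcript of the miR-379 cluster of microRNAs, and the knockout mice were made with CRISPR-Cas9 and belong to a single line, KO5. Glomeruli were pooled before culture, and the number of mice behind each library is not given in the sources used here, so the p-values measure the spread between libraries, which may be technical. The genotype was not checked here against lncMGC itself and is given as labelled.

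Plasminogen circulates as an inactive precursor, and Plau or Plat cleaves it to plasmin, a protease that dissolves fibrin and degrades matrix proteins directly and through matrix metalloproteinases. Plaur holds urokinase at the cell surface, whereas serpins trap the activators in inactive complexes that are cleared by endocytic receptors. In the glomerulus, where mesangial cells lay down matrix under TGF-β, the balance of activators and inhibitors is one of the routes by which matrix turnover is set. All levels below are RNA levels, and neither protein nor protease activity was measured.

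The promoter windows are shown to give the sequence context of the genes described below, which did not all move the same way. Of the 6 genes, 4 had a window in the RefSeq table (GRCm38.p6), and the 250 bases before an annotated start site are printed 5′ to 3′ on the gene's strand. Capitals mark matches, on either strand, to 4 motifs: the SMAD box CAGAC, the AP-1 site TGACTCA, the GC box GGGCGG and the TATA box TATAAA. Adjacent GC boxes may share a base.
Serpine2, chr1:79858666-79858915, minus strand: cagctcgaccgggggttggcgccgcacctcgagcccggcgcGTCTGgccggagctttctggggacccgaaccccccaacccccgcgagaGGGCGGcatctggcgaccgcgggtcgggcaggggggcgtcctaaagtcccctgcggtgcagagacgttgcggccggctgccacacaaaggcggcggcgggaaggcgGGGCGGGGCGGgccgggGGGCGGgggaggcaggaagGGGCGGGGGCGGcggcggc
Serpinf1, chr11:75422624-75422873, minus strand: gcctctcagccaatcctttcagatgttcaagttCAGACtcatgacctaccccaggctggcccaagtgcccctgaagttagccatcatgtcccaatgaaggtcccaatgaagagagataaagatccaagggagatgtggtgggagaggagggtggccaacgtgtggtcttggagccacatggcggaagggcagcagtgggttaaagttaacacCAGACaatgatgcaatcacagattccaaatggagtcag
Serpinb2, chr1:107511173-107511422, plus strand: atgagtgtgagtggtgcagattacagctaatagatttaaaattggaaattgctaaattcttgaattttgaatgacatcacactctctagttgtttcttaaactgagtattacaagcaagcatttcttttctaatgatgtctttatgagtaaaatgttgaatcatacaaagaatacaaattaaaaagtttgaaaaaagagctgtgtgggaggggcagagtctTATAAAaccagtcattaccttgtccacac
Plaur, chr7:24462233-24462482, plus strand: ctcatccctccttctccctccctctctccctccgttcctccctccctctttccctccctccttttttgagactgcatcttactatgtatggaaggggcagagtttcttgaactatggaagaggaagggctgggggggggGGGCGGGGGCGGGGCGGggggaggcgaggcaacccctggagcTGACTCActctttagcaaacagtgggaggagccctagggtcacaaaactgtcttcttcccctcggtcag

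The Serpine2 window was GC-rich, at 78.8% against a median of 52.4% over 32851 windows, and it held GC boxes together with a SMAD box that begins at -209 from the start site. The Serpinf1 window held SMAD boxes beginning at -217 and -38. The Plaur window held an AP-1 site beginning at -69 next to a run of GC boxes, and the Serpinb2 window held a TATA box beginning at -29. Serpinb2 has another annotated start site further on, from which the same TATA box begins at -116. The loci of Serpinb2 and Plaur begin upstream of these windows, at chr1:107500892 and chr7:24460937. No window was held for those upstream ends, so the sequence before them is not shown. Over all windows, 42.2% held the SMAD box, 4.46% the AP-1 site, 32.7% the GC box and 12.4% the TATA box. The matches are descriptions of these letters, and none was tested as a binding site.

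In wild-type cells TGF-β was followed by higher RNA of the receptor Plaur, of the activator Plat and of Serpinf1, and by lower RNA of the activator Plau and of the serpins Serpine2 and Serpinb2. The directions were alike in the knockout cells. Before TGF-β the knockout cells held about 3 times less Serpine2 and less Serpinf1 than wild type, and about 2 times more Plau. Of the 5 genes that passed the filter on low values (RPKM above 1 in at least 1 library, over the union of all annotated exons), 3 were called higher and 2 lower in each genotype's response (edgeR quasi-likelihood test, adjusted p below 0.05). Among all 11477 genes tested, 35.9% were called higher and 36.5% lower in the wild-type response, and 35.0% higher and 39.0% lower in the knockout response. Between the genotypes, 2 members were called higher and 3 lower in the knockout cells in either condition. The corresponding background was 30.6% higher and 25.3% lower in serum depletion, and 27.2% higher and 27.8% lower under TGF-β. With scaling by library size alone the split turned towards lower calls, at 23.1% higher and 52.3% lower, 20.1% and 58.1%, 21.3% and 36.3%, and 14.3% and 46.9% in the same 4 comparisons, whereas each called member kept its direction. The median of the 5 members was 0.28 on the log2 scale in the wild-type response, beside -0.0056 for all genes tested, and -0.23 for KO-SD against WT-SD, beside 0.019.

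**Figure D1:**
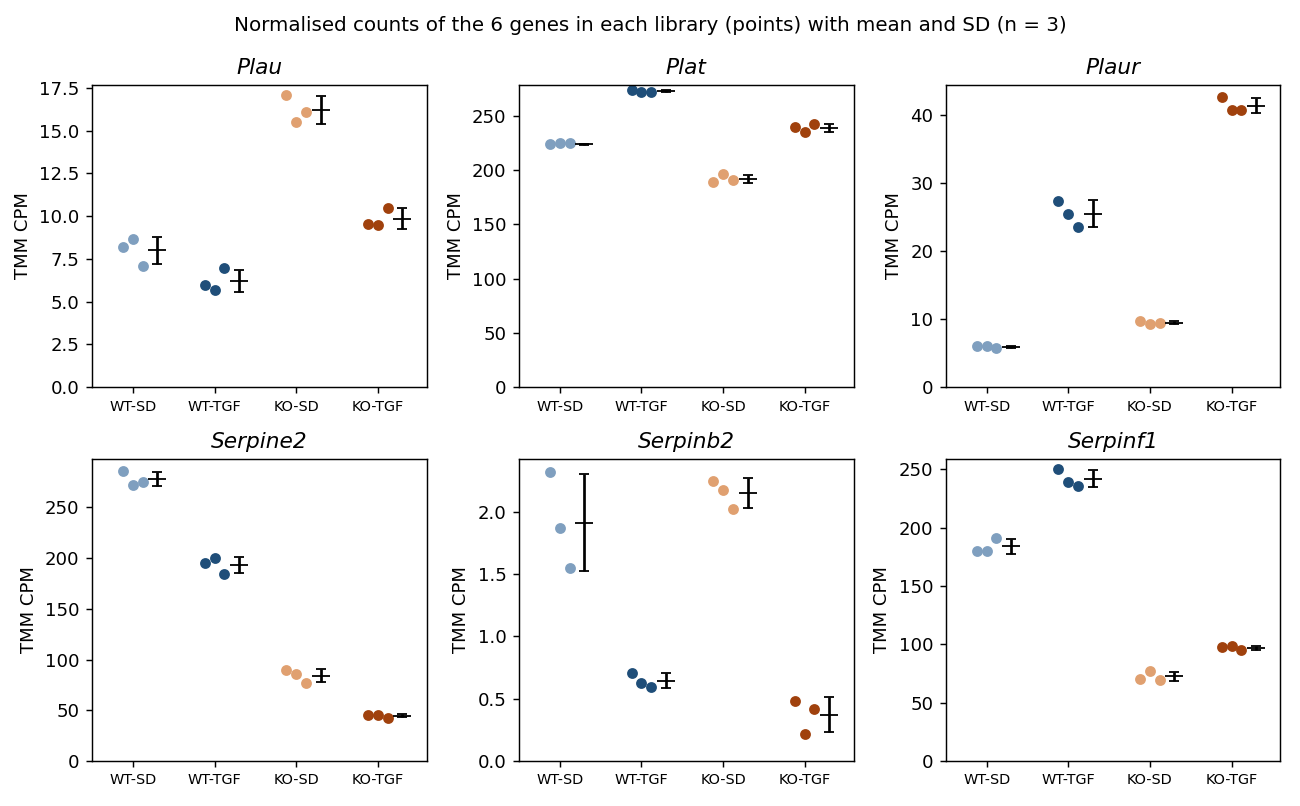
Normalised counts (TMM-scaled CPM, counts relative to library size, vertical axis from 0) of the 6 genes in each of the 12 libraries by group (horizontal axis), with the mean and SD of 3 libraries in black. Plaur rose from 5.95 to 25.5 CPM in wild type and from 9.49 to 41.4 CPM in the knockout, while Serpine2 fell stepwise from 278 CPM in WT-SD to 44.3 CPM in KO-TGF.

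Plaur, the receptor, had the largest increase of the 6 genes with TGF-β. The raw counts in WT-SD were 132, 139 and 127, and those in WT-TGF were 581, 571 and 477. In KO-SD they were 211, 193 and 206, and in KO-TGF 797, 762 and 778. No treated library overlapped an untreated one, and every knockout library stood above the wild-type libraries of its condition. In normalised counts Plaur went from 5.95 ± 0.137 to 25.5 ± 1.95 CPM in wild type (SD, n = 3) and from 9.49 ± 0.19 to 41.4 ± 1.08 CPM in the knockout. The log2 fold change was 2.1 ± 0.0745 (SE) in wild type, with an adjusted p of 2.69e-21 by edgeR, and 2.12 ± 0.0641 in the knockout, with an adjusted p of 3.57e-23. The knockout was higher by 0.67 on the log2 scale in serum depletion (adjusted p = 1.74e-07 by edgeR) and by 0.70 under TGF-β (adjusted p = 1.59e-12). The response itself was not shown to differ between genotypes, since the difference of the log2 fold changes was 0.03 with a 95% confidence interval from -0.195 to 0.246. Its sign changed when scaling was by library size alone and when WT-TGF replicate 3 was left out.

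Plau, the urokinase that Plaur binds, moved the other way. Raw counts were 180, 200 and 156 in WT-SD and 126, 128 and 141 in WT-TGF. They were 373, 321 and 351 in KO-SD and 178, 178 and 201 in KO-TGF. All treated libraries lay below the untreated libraries of the same genotype, and all knockout libraries lay above the wild-type libraries of the same condition. Plau fell by 0.37 on the log2 scale in wild type (SE 0.103, adjusted p = 0.00193 by edgeR) and fell by 0.72 in the knockout (SE 0.0846, adjusted p = 6.7e-09). In serum depletion the knockout cells held 16.2 ± 0.828 CPM and the wild-type cells 8 ± 0.807 CPM, a 2.03-fold difference with an adjusted p of 9.63e-12 by edgeR. Under TGF-β the difference was 1.59-fold, at an adjusted p of 1.51e-06. The larger decrease in the knockout did not pass the threshold: the difference of the responses was -0.35, with an interval from -0.623 to -0.0739 and an adjusted p of 0.0559 by edgeR. It was called under several alternatives, among them the fit without WT-SD replicate 2 (adjusted p = 0.0334 by edgeR), without WT-TGF replicate 2 (0.0397) and without KO-SD replicate 2 (0.0454).

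Plat, the tissue activator, was the abundant activator in these cells and changed little, with narrow spread. Raw counts were 4915, 5174 and 4928 in WT-SD and 5797, 6103 and 5506 in WT-TGF. They were 4116, 4058 and 4161 in KO-SD and 4483, 4398 and 4611 in KO-TGF. After scaling for depth, the wild-type libraries ran from 224 to 225 CPM untreated and from 272 to 274 CPM treated, with no overlap. The knockout libraries ran from 189 to 196 CPM untreated and from 235 to 242 CPM treated. Plat rose by 0.28 on the log2 scale in wild type (SE 0.0248, adjusted p = 1.89e-11 by edgeR) and by 0.32 in the knockout (SE 0.0255, adjusted p = 1.94e-12). It was lower in the knockout by a factor of 1.17 in serum depletion (adjusted p = 5.72e-09 by edgeR) and of 1.14 under TGF-β (adjusted p = 1.17e-07). The responses differed by 0.04, with an interval from -0.0372 to 0.108. With scaling by library size alone, which moved the median of all genes to -0.16 in the wild-type and -0.23 in the knockout response, the Plat increases were 0.125 and 0.113 and were still called, and the difference between KO-TGF and WT-TGF was -0.311 in place of -0.19.

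Serpine2 encodes protease nexin-1, a cell-bound serpin that inhibits thrombin, urokinase and tissue activator. Raw counts were 6278, 6267 and 6041 in WT-SD and 4118, 4492 and 3733 in WT-TGF. In the knockout they were 1941, 1777 and 1671 in KO-SD and 837, 851 and 813 in KO-TGF. The 4 groups did not overlap, and the highest knockout library stood well under the lowest wild-type library. Mean levels were 278 ± 7.2 and 193 ± 8.04 CPM in wild type and 83.9 ± 6.48 and 44.3 ± 1.45 CPM in the knockout, untreated and treated (SD, n = 3). The knockout was lower by 3.31-fold in serum depletion, with an adjusted p of 5.44e-26 by edgeR, and by 4.36-fold under TGF-β, with an adjusted p of 8.55e-27. Serpine2 fell by 0.53 on the log2 scale with TGF-β in wild type (SE 0.0353) and fell by 0.92 in the knockout (SE 0.0475).

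Serpine2 was the member whose response was called different between the genotypes: the difference was -0.40 (SE 0.0594, interval from -0.517 to -0.274, adjusted p = 4.95e-06 by edgeR). Of all genes tested, 8.77% had a called difference upwards and 16.6% downwards, or 5.99% and 23.1% with scaling by library size alone. The summed CPM of 4 podocyte markers moved with Serpine2 between the genotypes, at 440 to 447 in WT-SD and 447 to 465 in WT-TGF against 214 to 222 in KO-SD and 203 to 218 in KO-TGF. Among these markers Wt1 was at 99.1, 68.2, 25.3 and 11.7 CPM in the 4 groups, and Podxl at 98.1, 74, 32.8 and 25.8 CPM. Synpo, the highest of these markers, went from 247 to 313 CPM with TGF-β in wild type. In the knockout it went from 160 to 172 CPM. Synpo was therefore lower in the knockout, as Serpine2 was, but rose with TGF-β where Serpine2 fell. The slit diaphragm gene Nphs1 was at or near 0 in all groups. The part of these markers in the Serpine2 difference was not tested, and in bulk RNA fewer cells of a type and less RNA per cell cannot be told apart.

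Serpinf1 encodes a secreted serpin without protease inhibition, known for acting against blood vessel growth. Raw counts were 3953, 4147 and 4192 in WT-SD and 5290, 5375 and 4780 in WT-TGF. They were 1536, 1596 and 1519 in KO-SD and 1826, 1837 and 1812 in KO-TGF. Every treated library was above the untreated ones of its genotype, and every knockout library was below every wild-type library. Serpinf1 was at 184 ± 6.34 and 242 ± 7.26 CPM in wild type and at 72.4 ± 4.03 and 96.9 ± 1.63 CPM in the knockout. It rose by 0.40 on the log2 scale with TGF-β in wild type (adjusted p = 1.66e-12 by edgeR) and by 0.42 in the knockout (adjusted p = 2.58e-11), or by 0.241 and 0.219 with scaling by library size alone. The knockout was 2.54-fold lower in serum depletion (adjusted p = 4.05e-24 by edgeR) and 2.49-fold lower under TGF-β (adjusted p = 2.83e-24). The podocyte marker sum given beside Serpine2 was also lower in the knockout, and its part in the Serpinf1 difference was not tested. The responses differed by 0.03, with an interval from -0.0757 to 0.126, and the sign of that difference changed under 3 of 18 alternatives.

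Serpinb2, a mostly intracellular inhibitor of urokinase, was scarce. Raw counts were 51, 43 and 34 in WT-SD and 15, 14 and 12 in WT-TGF. They were 49, 45 and 44 in KO-SD and 9, 4 and 8 in KO-TGF. Over that union of exons it fell just short of the filter and its values come from a second fit, in which the filter was dropped and 18565 genes were kept. Within each genotype the treated libraries lay below the untreated ones, at 0.642 ± 0.0602 against 1.91 ± 0.389 CPM in wild type and 0.372 ± 0.14 against 2.15 ± 0.118 CPM in the knockout. It fell by 1.53 on the log2 scale in wild type (SE 0.254, adjusted p = 5.78e-09 by edgeR) and fell by 2.50 in the knockout (SE 0.293, adjusted p = 9.03e-17). The genotypes overlapped in serum depletion, with a log2 fold change of 0.20 and an adjusted p of 0.474 by edgeR. Under TGF-β they did not overlap, yet the difference of -0.77 was not called (adjusted p = 0.108 by edgeR), and it was called with scaling by library size alone (-0.896, adjusted p = 0.046). The difference of the responses was -0.96 with an adjusted p of 0.12 by edgeR.

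**Figure D2:**
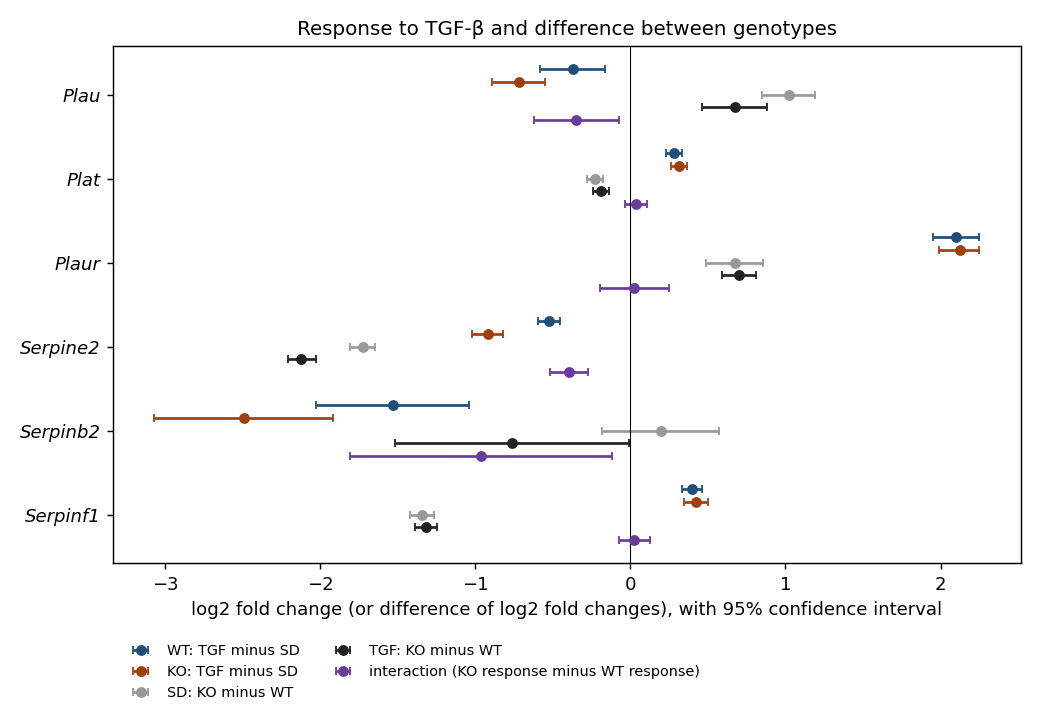
Log2 fold changes of the 6 genes (points, horizontal axis, with 95% confidence intervals) for the response to TGF-β in each genotype, the knockout against wild type in each condition, and the difference of the responses. Serpine2 and Serpinf1 lie below 0 in both genotype contrasts and Plau and Plaur above it, and the difference of the responses was called for Serpine2 alone, at -0.40.

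Macrophages are a known source of urokinase, its receptor and Serpinb2, so a list of 10 macrophage markers was read beside them. Their summed level ran from 36.4 to 39.8 CPM in WT-SD, 19.2 to 22.9 in WT-TGF, 8.18 to 9.77 in KO-SD and 2.35 to 2.68 in KO-TGF, and Adgre1 and C1qa had no count in the knockout libraries. Plau and Plaur were higher in the knockout, where these markers were lower. Plaur rose with TGF-β, while Plau and Serpinb2 fell, as the marker sum did. The part of these markers in those changes was not tested. The summed tubular markers ran from 72.1 to 78.4 CPM in WT-SD and from 4.01 to 4.35 CPM in KO-TGF. Lrp2 (42.7 to 3.28 CPM) and Cdh16 (27.5 to 0.53 CPM) carried this tubular sum. Aqp1 was higher in KO-SD (6.81 CPM) than in WT-SD (4.11 CPM) and fell to 0.247 CPM in KO-TGF. Slc34a1, Umod, Slc12a3 and Epcam were at or near 0 in all groups. The summed mesangial and smooth muscle markers, led by Acta2, ran from 2670 to 2820 CPM in WT-SD and from 11500 to 11600 CPM in KO-TGF, and endothelial markers summed to at most 1.06 CPM. Acta2 (1570 to 6280 CPM) and Tagln (716 to 3910 CPM) carried that sum between the same groups, whereas Pdgfrb went from 289 to 358 CPM, Des from 7.68 to 0.247 CPM and Itga8 from 2.9 to 0.637 CPM.

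Levels were compared between genes per length, as CPM divided by the kilobases of exon in RefSeq-linked transcripts (also RPKM, over the shorter RefSeq exons). In WT-SD the order was Serpine2 at 126 ± 3.26 RPKM, Serpinf1 between 98.3 and 104, Plat at 88.9 ± 0.186, Plaur at 3.95 ± 0.0909, Plau at 3.42 ± 0.345 and Serpinb2 at 0.93 ± 0.189, and no neighbours in that order overlapped. The order rests on the lengths used. The union of all annotated exons is longer for each gene, most of all for Serpine2, Plat and Plaur, and hardly so for Plau. Over that union the order was Serpinf1 at 77.9 ± 2.69, Plat at 36 ± 0.0925, Serpine2 at 33.5 ± 0.889, Plau at 3.38 ± 0.342, Plaur at 2.27 ± 0.0522 and Serpinb2 at 0.815 ± 0.165 RPKM. In KO-SD Plat stood first at 76 ± 1.41 RPKM, and Serpinf1 (38.0 to 42.1) and Serpine2 (34.7 to 40.3) could not be separated. Over the union of exons, Plat (30.3 to 31.4) and Serpinf1 (29.5 to 32.7) overlapped there. In KO-TGF Plaur, at 27.5 ± 0.717 RPKM, was above Serpine2, at 20 ± 0.658 RPKM, and stood above it over the union of exons too (15.8 and 5.35).

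Ratios within a library do not depend on scaling, and 2 of 4 computed are given in full, chosen after the values were seen. Of the others, mean Plat per Plau was lower in the knockout, at 26.2 in WT-SD and 11 in KO-SD, and 41 in WT-TGF and 22.5 in KO-TGF. Mean Serpinf1 per Serpine2 was higher in the knockout, at 0.798 in WT-SD and 1.04 in KO-SD, and 1.51 in WT-TGF and 2.64 in KO-TGF. Plat per Serpine2, on the RPKM scale, was 0.685, 0.723 and 0.714 in WT-SD and 1.23, 1.19 and 1.29 in WT-TGF. In the knockout it was 1.86, 2 and 2.18 in KO-SD and 4.69, 4.52 and 4.96 in KO-TGF. The groups did not overlap, and the mean went from 0.707 ± 0.0196 in WT-SD to 4.73 ± 0.223 in KO-TGF. Over the union of exons the means were 1.07 ± 0.0309 and 7.17 ± 0.33, so whether the activator lay below the inhibitor in WT-SD depends on the lengths, whereas the change between groups does not. Plaur per Plau had a mean of 1.16 ± 0.0945 in WT-SD, 6.46 ± 1.04 in WT-TGF, 0.909 ± 0.0278 in KO-SD and 6.55 ± 0.482 in KO-TGF. Over the union of exons these means were 0.676, 3.75, 0.529 and 3.81. Each response and each difference between genotypes had a 2-sided exact permutation p of 0.1, the smallest that 3 against 3 libraries allow, except Plaur per Plau in KO-TGF against WT-TGF, where the exact permutation p was 0.9.

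**Figure D3:**
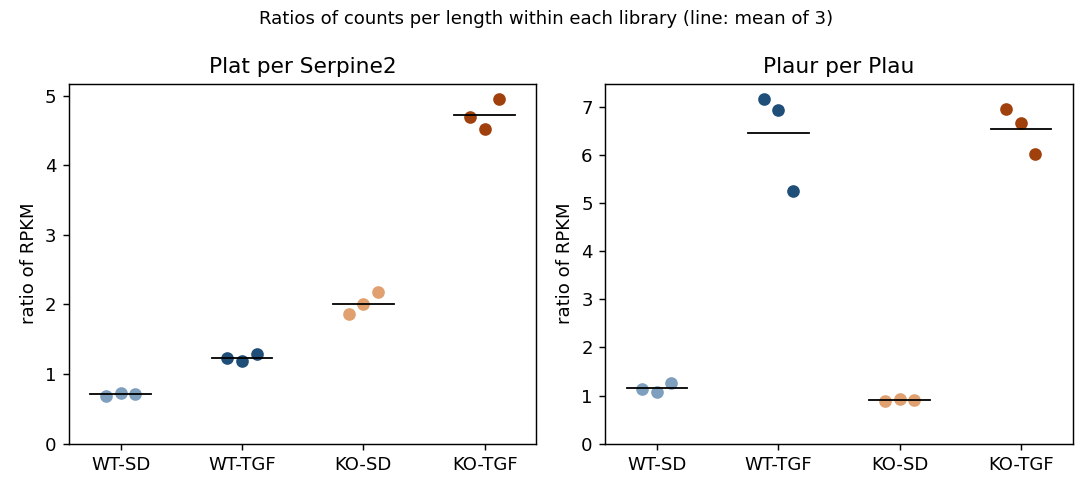
Ratio of Plat to Serpine2 and of Plaur to Plau (vertical axis, RPKM over RPKM, from 0) in each library by group, with a line at the mean of 3 libraries. Plat per Serpine2 rises over the 4 groups from 0.707 to 4.73, and Plaur per Plau is near 1 in both untreated groups and near 6.5 in both treated groups, over RefSeq exons.

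The wider plasminogen system was read from a list of 26 partner genes, of which 23 had a count and 13 passed the filter. Plasminogen itself (Plg) had no count in any library, which allows at most 0.13 to 0.16 CPM. In the wild-type response 6 partners were higher, 6 lower and 1 neither (35.9% and 36.5% of all genes were higher and lower), and in the knockout response 5 were higher and 7 lower (35.0% and 39.0%). Between the genotypes 4 rose above and 8 lay below wild type in serum depletion, against 3 above and 9 below with TGF-β, with medians of -0.34 and -0.42 beside 0.019 and -0.0035 for all genes tested. Of all genes, 30.6% were higher and 25.3% lower in the first comparison and 27.2% and 27.8% in the second. Tfpi, the inhibitor of the tissue factor pathway, was at 71.5 ± 2.86 CPM in WT-SD, 51.5 ± 0.899 in WT-TGF, 8.73 ± 0.805 in KO-SD and 5.17 ± 0.291 in KO-TGF, and its knockout difference under TGF-β was -3.31. Fgb, the fibrinogen beta chain, stood at 5.74 ± 0.113 CPM in untreated wild type but at 0.282 ± 0.102 CPM in untreated knockout cells. The other fibrinogen chains of the list were all but absent, as Fgg had no count and Fga at most 1 count in any library. Thbd, the thrombin cofactor thrombomodulin, stood at 41.6 ± 1.65 CPM in treated wild type but at 16.8 ± 0.739 CPM in treated knockout cells. Among the plasminogen receptors of the list, named here after their values were seen, Anxa2 rose from 403 ± 4.29 to 885 ± 10.2 CPM in wild type and S100a10, its binding partner, from 69.3 ± 1.51 to 124 ± 4.94 CPM. Eno1 rose from 39.8 ± 1.99 to 73.1 ± 3.86 CPM. Plgrkt went the other way, and fell by 0.52 on the log2 scale in wild type and fell by 0.25 in the knockout. In serum depletion Anxa2, S100a10 and Eno1 were higher in the knockout by 0.40, 0.48 and 0.63 on the log2 scale, and the Plgrkt difference was -0.34.

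The other serpins reported here formed a list of 61 genes, of which 44 had a count and 15 passed the filter. With TGF-β 2 were higher and 12 lower in wild type, and 3 were higher and 11 lower in the knockout, with medians of -0.46 and -1.33 beside -0.0056 and -0.024 for all genes tested. The shares of all genes called higher and lower were 35.9% and 36.5% in wild type and 35.0% and 39.0% in the knockout. In the knockout 7 were higher and 7 lower in serum depletion (30.6% and 25.3% of all genes), and 5 were higher and 9 lower under TGF-β (27.2% and 27.8%), with medians of 0.0183 and -0.51 beside 0.019 and -0.0035. The difference of the responses was called higher for 2 of these serpins and lower for 9, with a median of -0.87 beside -0.03, and for the partners it was called higher for 1 and lower for 5 of 13. Of all genes, 8.77% were called higher and 16.6% lower, so Serpine2 was 1 of many genes, other serpins among them, with a called difference downwards.

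Among these serpins, Serpinb8 fell with TGF-β from 20.4 ± 1.48 to 6.72 ± 0.57 CPM in wild type and from 23.8 ± 0.72 to 5.05 ± 0.178 CPM in the knockout. Serping1, the inhibitor of complement C1, went from 6.19 ± 0.0507 CPM in untreated wild type to 1.37 ± 0.273 CPM in untreated knockout cells. Serpina10, the inhibitor that acts with protein Z, went from 8.51 ± 0.347 to 0.533 ± 0.227 CPM over the same groups. Serpina3g, Serpina3h, Serpina3i, Serpina3n, Serpinb1a and Serpinb9b also met the rule for named genes, and they belong to clusters of related genes, so their counts are uncertain where reads could match more than 1 copy, which was not tested. The log2 difference between KO-TGF and WT-TGF was -2.03 for Serpina3n and 1.90 for Serpinb9b.

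**Figure D4:**
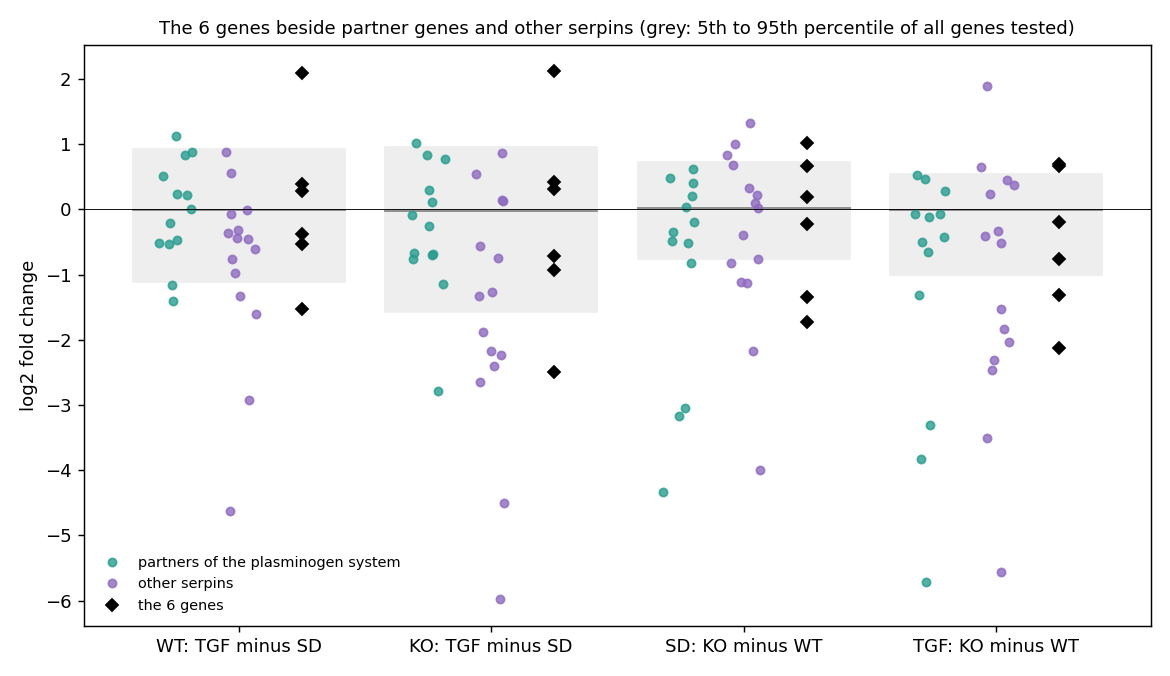
Log2 fold changes (vertical axis) of the 13 partner genes and 15 other serpins that passed the filter and of the 6 genes, in 4 contrasts, with the 5th to 95th percentile of all 11477 genes tested in grey. Among the genes plotted, Plaur is the highest point in both responses, at 2.1 and 2.12.

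The genes whose log2 CPM followed each member most closely over the 12 libraries were found by Pearson correlation, as a description over libraries that share the 4 groups. For Serpine2 they were Wt1 (r = 0.9971), Myo6 and Cdo1, and for Serpinf1 they were Adgrg1 (r = 0.9963), Col4a4 and Cd200. For Plaur they were Filip1l (r = 0.9997), Plk2 and Pdlim7. For Plau they were Nfix (r = 0.9851), Khsrp and Cavin2, and for Plat they were Mid1ip1 (r = 0.996), Klhdc8a and Cx3cl1. Correlations above 0.95 were common for Plaur, with 1053 of 10073 genes, and less so for Plau, with 42.

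The members lie on 5 chromosomes (GRCm38.p6, the build called mm10), with Serpine2 at chr1:79794317-79858665 and Serpinb2 at chr1:107500892-107525600, Serpinf1 at chr11:75410029-75422623, Plau at chr14:20836662-20843388, Plaur at chr7:24460937-24475970 and Plat at chr8:22757722-22782848. Counts were assigned to exons, and no exon of another annotated gene overlapped theirs. Each library held between 19898050 and 22827706 counts on genes, at which 3 counts correspond to 0.13 to 0.16 CPM.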

How the data were processed

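RNA of the 12 samples was made into mRNA libraries with a Kapa HyperPrep kit, and reads were mapped by the authors (TopHat, genome mm10) and assigned to RefSeq genes on the reverse strand (HTSeq). The deposited values are raw read counts per gene. Rows that name no gene were left out of library sizes, the share without a feature being 10.3% to 15.4%. Counts were analysed with edgeR 4.0.16 in R 4.3.3: TMM scaling, the quasi-likelihood test on 1 fit of all 12 libraries, and Benjamini-Hochberg adjustment over 11477 genes with an RPKM above 1 in at least 1 library. Exon lengths came from GENCODE, and 24718 of 25230 genes had one. The procedure was tested on simulated data in which few genes changed, equally in both directions. That test cannot check the scaling here, where most genes were called in each response.

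The members and lists were chosen with earlier results of these data known. The serpin list holds the other symbols that start with Serpin. From the lists, 2 genes are not reported here, and the counts, medians and named genes leave them out. Named list genes are the 12 with the largest fold change in any contrast of 2 groups among those with an adjusted p below 0.05, a fold change above 1.5, no overlap of libraries, and 5 CPM or more where expression was higher. The 3 closest genes by correlation are named for each tested member. Alternatives were scaling by library size, DESeq2 1.42.0, other filters, a likelihood ratio test, fits of the compared groups, a replicate block, leaving out each library and, added after seeing the data, union exon lengths for levels between genes.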

Additional observations from a re-analysis of the deposited data

Results flagged for a closer look

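The response of Serpine2 to TGF-β differed between the genotypes by the interaction test: the log2 fold change in the knockout minus that in wild type was -0.396, with an adjusted p of 4.95e-06 by edgeR. Serpine2 fell in all 3 treated libraries of each genotype relative to every untreated library of that genotype.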

How the results depend on the processing

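Of 564 values of the 6 genes under alternatives, 551 kept their direction and their side of the threshold, and all 5 calls of Serpine2 were kept under each alternative run. The number of members with a called difference of the responses went from 1 to 2 with library size alone, no filter and the likelihood ratio test, in each case by adding Plau (-0.396, -0.366 and -0.349), and ranged from 1 to 2 when libraries were left out. The adjusted p of that Plau difference ranged from 0.0252 to 0.203. Differences of the responses that were not called changed sign with library size alone: Serpinf1 to -0.0218, Plaur to -0.0218 and Plat to -0.0116. With libraries left out, the Serpinf1 difference ranged up to 0.0753 and the Plaur difference up to 0.0773, and the sign changed for Serpinf1 without WT-SD replicate 3 (-0.00362) and without KO-SD replicate 3 (-0.00157), and for Plaur without WT-TGF replicate 3 (-0.0267). The cause was not tested. Same-numbered libraries were not treated as paired. Correlations of their deviations ran from -0.0284 to 0.0867. These cannot show whether the libraries were paired, since differently numbered ones were not compared. With a replicate block the counts of called members stayed at 6, 6, 5, 5 and 1. These counts are over all 6 genes, with Serpinb2 read from the fit without the filter. Low counts limit Serpinb2, with 4 to 51 counts a library.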
